A study of Rattus norvegicus with 8 samples.

Results

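The antioxidant response genes described here are 10 genes, Nfe2l2, Hmox1, Nqo1, Gclc, Gclm, Txnrd1, Sod1, Sod2, Cat and Mt3, chosen by name and read by every probe set to which the platform annotation gives a single one of these symbols. That rule found 12 of the 31042 non-control probe sets of the Affymetrix Rat Genome 230 2.0 array and 10 of its 14217 singly named genes. The baculovirus arrays carried RNA from brain tissue of adult male Wistar rats, collected 48 hours after a stereotaxic injection into the striatum of 5 µl with 50000000 particles of a baculovirus vector, whose infectivity had been destroyed by 1 hour under a 254 nm ultraviolet lamp, as tested on cultured glioma cells (4 arrays). The control arrays carried RNA from brain tissue after an injection of 5 µl of phosphate-buffered saline, PBS, into the striatum (4 arrays). Both groups had an injury from the needle at 2 injection sites, no array came from a brain without an injection, and the labels give the age only as adult and name no transgene. The design text counts 7 rats and places PBS in the opposite striatum, and no label ties an array to a rat. With 8 arrays from 7 rats, some arrays shared an animal. The p-values take the 8 arrays as independent and measure only the spread between these 8 samples.

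Cells meet oxidants with a program whose central switch is NRF2, the product of Nfe2l2. KEAP1 normally holds NRF2 for degradation. When KEAP1 is oxidised, NRF2 escapes degradation and binds antioxidant response elements. These lie in front of genes for glutathione synthesis, thioredoxin recycling, quinone reduction and haem breakdown. In brain this program is known to be strong in astrocytes, whereas superoxide dismutases and the brain metallothionein Mt3 are made in quantity without a stimulus. Much of NRF2 control acts on the protein, which an RNA measurement does not see.

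Promoter windows show where the switch could act. RefSeq sequences on the GRCr8 build, from 250 bases before to 50 bases after each transcript start, were matched for 9 of the 10 genes, with 10 windows. No window was at hand for Hmox1, which was therefore not searched. The core of the antioxidant response element, searched as TGACNNNGC on both strands, occurred in windows of 4 of these genes, against 12.1% of all 33469 windows. Its TGAC start is shared with AP-1 sites. The windows of Gclm and Txnrd1 are shown because both genes are classical NRF2 targets and their matches lie before the start, 172 and 78 bases upstream counted from the first base of the match. Capitals mark the match, which reads on the opposite strand in both.
Gclm, chr2:213031885-213032184, plus strand: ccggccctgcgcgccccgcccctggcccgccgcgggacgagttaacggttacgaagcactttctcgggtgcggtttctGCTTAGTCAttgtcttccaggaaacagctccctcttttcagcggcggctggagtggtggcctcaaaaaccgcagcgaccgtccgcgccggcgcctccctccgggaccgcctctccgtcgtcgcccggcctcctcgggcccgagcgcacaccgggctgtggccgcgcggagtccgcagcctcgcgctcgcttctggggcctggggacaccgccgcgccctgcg
Txnrd1, chr7:22755855-22756154, minus strand: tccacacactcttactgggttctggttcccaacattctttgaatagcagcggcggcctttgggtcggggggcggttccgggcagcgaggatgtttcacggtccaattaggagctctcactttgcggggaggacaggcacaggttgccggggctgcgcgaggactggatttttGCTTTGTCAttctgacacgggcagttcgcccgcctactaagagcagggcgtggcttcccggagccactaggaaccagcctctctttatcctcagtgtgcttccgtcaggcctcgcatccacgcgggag
In Sod2 the match GCAGGGTCA began 35 bases before the start, and in Nfe2l2 the match TGACGCCGC lay in the stretch after it. In the windows of the other matched genes, and in the other window of Txnrd1, these letters were not found, which says nothing of elements farther away.

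Mt3 is shown for a different element. Some metallothionein genes are classically induced by zinc through metal response elements bound by MTF1. The patterns TGCACNC and TGCGCNC, searched on both strands, matched 3 times in the Mt3 window, starting 110, 81 and 51 bases before the start. Such matches do not show that Mt3 itself responds to zinc, which was not tested. At least 1 such match was held by 24.2% of all windows, and among the members by Gclm as well. The 2 searched elements shared no base in the windows shown. Capitals mark the matches.
Mt3, chr19:10856031-10856330, minus strand: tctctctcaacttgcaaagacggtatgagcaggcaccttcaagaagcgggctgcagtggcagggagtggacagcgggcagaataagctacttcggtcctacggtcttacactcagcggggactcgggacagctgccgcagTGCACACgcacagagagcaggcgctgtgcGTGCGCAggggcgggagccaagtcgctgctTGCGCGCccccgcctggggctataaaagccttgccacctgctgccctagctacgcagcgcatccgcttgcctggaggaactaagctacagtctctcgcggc

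Before the results, 1 array needs naming. PBS replicate 4 had an intensity of 47.7 for the choroid plexus gene Ttr, against 1563 to 1968 on the other 7 arrays. Values without it are given after the counts over all arrays. Genes that mark striatal neurons were present: all 7 of the 8 listed that the annotation names were above the level filter, as were 7 of 7 astrocyte and 9 of 9 microglial markers. Intensities were scaled to a trimmed mean of 100.021 to 100.023 on every array. Tests ran on log2(intensity + 16), so all fold changes below are on that scale, and covered the probe sets above the 40th percentile of mean level, an intensity of about 26.0. All 12 member probe sets lay above this filter, which used the mean over both groups.

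No difference between brain tissue given baculovirus and that given PBS was detected for any of the 10 genes. In limma, with Benjamini-Hochberg adjustment over 18625 probe sets, 0 of 12 member probe sets passed an adjusted p of 0.05, where the background was 0% (0 probe sets of any gene). At an unadjusted p under 0.05 there were 0 members, against 6.73% of all probe sets tested. Sod2 came under it without PBS replicate 1, and Hmox1 with PBS replicates 3 and 4 left out together. For every member the ranges of the groups overlapped, and 3.86% of all probe sets tested had groups that did not overlap. With only 12 member probe sets, a count of 0 is near this share and near the 6.73% above. By the probe set with the highest mean, 6 genes had a higher and 4 a lower mean after baculovirus, and 55.7% of all 10539 genes tested had a higher one. The median log2 fold change of the 10 genes was 0.015, and it was 0.015 over all genes tested. Their median absolute log2 fold change was 0.024, against 0.081 over all genes tested. In bulk tissue a change in the number of cells of a type and a change in RNA per cell cannot be told apart.

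Without PBS replicate 4, the array low in Ttr, 0 of 12 member probe sets passed and the median log2 fold change of the 10 genes was 0.0038. The brighter Gclc probe set stood at -0.077, the dimmer at 0.096 and Gclm at -0.052. Txnrd1 stood at 0.039 by its brighter and 0.18 by its dimmer probe set, Sod1 at 0.029 and Sod2 at 0.096. Nfe2l2 stood at -0.028, Hmox1 at 0.054, Nqo1 at 0.0039, Cat at -0.068 and Mt3 at 0.0037. The dimmer Txnrd1 probe set had the lowest adjusted p of the members without that array (0.621, limma).

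**Figure D1:**
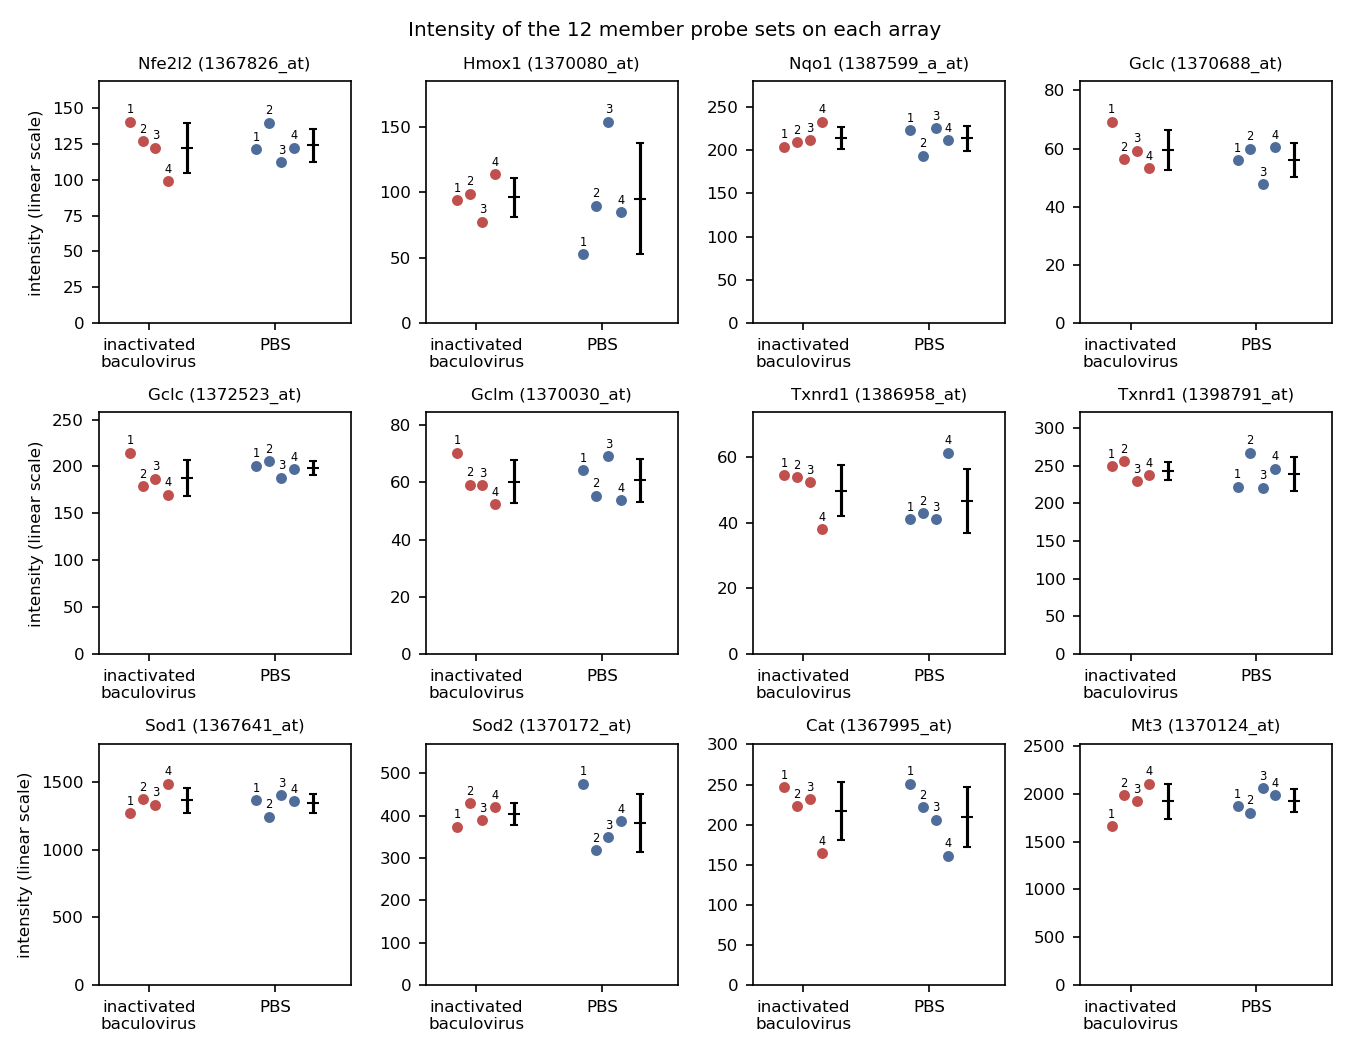
Intensity on a linear scale (vertical axes, from 0) of each of the 12 member probe sets on the 4 inactivated baculovirus arrays (red) and the 4 PBS arrays (blue), with replicate numbers beside the points and mean ± SD as black bars. The groups overlap in every panel, and Hmox1 has the widest relative range, 52.7 to 154 among PBS arrays.

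Nfe2l2, which encodes the switch NRF2, had intensities of 141, 127, 123 and 99.04 in baculovirus replicates 1 to 4, against 122, 140, 113 and 123 in PBS replicates 1 to 4. The highest value of each group was nearly the same, and the lowest belonged to baculovirus replicate 4. The group means were 122 ± 17.4 after baculovirus and 124 ± 11.5 after PBS (SD, n = 4 each). The log2 fold change of -0.024 had a 95% interval from -0.25 to 0.21 (adjusted p = 0.981, limma).

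Hmox1 encodes haem oxygenase-1, which breaks haem into biliverdin, iron and carbon monoxide and is a standard marker of oxidative injury and of haemorrhage. It read 94.0, 98.9, 77.5 and 114 after baculovirus, against 52.7, 89.5, 154 and 84.4 after PBS. The 2 extremes were both PBS arrays, replicate 3 at the top and replicate 1 at the bottom, and the baculovirus arrays lay between them. The means were 96.0 ± 14.9 and 95.1 ± 42.4 (SD, n = 4 each, baculovirus and PBS), and the log2 fold change of 0.077 had a 95% interval from -0.37 to 0.53 (adjusted p = 0.96, limma). Its within-group SD on the log2 scale, 0.40, was larger than that of 98.2% of the probe sets tested. Without PBS replicate 1 the log2 fold change was -0.13, and without PBS replicate 3 it was 0.31. With PBS replicates 3 and 4 left out together, a choice made after seeing the data, it was 0.39 (adjusted p = 0.63, limma). The haemoglobin gene Hbb, read as a sign of blood in the tissue, had intensities of 86.3, 430, 73.7 and 735 in the baculovirus replicates, against 63.3, 115, 46.6 and 488 in the PBS replicates. PBS replicate 3, highest for Hmox1, was thus lowest for Hbb, and the part of blood in the Hmox1 values was not tested further.

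Nqo1, a quinone reductase and the textbook NRF2 target, varied little. It read 204, 209, 211 and 233 after baculovirus, against 223, 193, 225 and 212 after PBS. The arrays of both groups mixed over a range of 1.20-fold from lowest to highest. The log2 fold change of 0.0065 had a 95% interval from -0.17 to 0.18 (adjusted p = 0.994, limma), and only 10.8% of tested probe sets had a smaller within-group SD.

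The ligase that makes the first intermediate of glutathione has a catalytic subunit, Gclc, and a regulatory one, Gclm. The brighter Gclc probe set, 1372523_at, read 215, 179, 187 and 170 after baculovirus, against 201, 206, 188 and 197 after PBS. Baculovirus replicate 1 was the highest array and replicate 4 the lowest, so the PBS arrays fell inside the baculovirus range. Its log2 fold change of -0.075 had a 95% interval from -0.26 to 0.11 (adjusted p = 0.878, limma), the lowest adjusted p of the members. The other Gclc probe set, 1370688_at, had 69.2, 56.5, 59.3 and 53.2 after baculovirus and 56.1, 60.02, 47.8 and 60.5 after PBS, with a fold change of the opposite sign (0.066 on the log2 scale, adjusted p = 0.921). Gclm read 70.3, 59.2, 59.0 and 52.3 after baculovirus, against 64.4, 55.3, 69.2 and 53.8 after PBS. Its log2 fold change of -0.0083 had a 95% interval from -0.24 to 0.23 (adjusted p = 0.994, limma).

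Txnrd1 encodes the cytosolic thioredoxin reductase, a selenoprotein that keeps thioredoxin reduced. The brighter probe set, 1398791_at, read 249, 256, 230 and 237 after baculovirus, against 222, 267, 221 and 246 after PBS. PBS replicate 2 was the highest array and PBS replicate 3 the lowest. Its log2 fold change of 0.025 had a 95% interval from -0.15 to 0.20 (adjusted p = 0.97, limma). The dimmer probe set, 1386958_at, read 54.4, 53.7, 52.3 and 38.0 after baculovirus, against 40.9, 42.9, 41.1 and 61.2 after PBS. Here 3 baculovirus arrays stood above 3 PBS arrays, and replicate 4 of each group stood on the other side. The log2 fold change of 0.073 had a 95% interval from -0.21 to 0.35 (adjusted p = 0.93, limma).

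Superoxide dismutases turn superoxide into hydrogen peroxide, Sod1 in the cytosol with copper and zinc, Sod2 in mitochondria with manganese. Sod1 had 1268, 1370, 1332 and 1486 after baculovirus, against 1363, 1244, 1401 and 1355 after PBS. The arrays ranged over 1.19-fold, and the interval of its log2 fold change was the narrowest of the members, -0.12 to 0.17 around 0.023 (adjusted p = 0.964, limma). Sod2, which inflammatory signals are known to induce, read 374, 431, 390 and 420 after baculovirus, against 476, 319, 350 and 387 after PBS. Its highest and lowest arrays were both PBS, replicates 1 and 2. The log2 fold change of 0.086 had a 95% interval from -0.14 to 0.31 (adjusted p = 0.887, limma), the largest of the 10 genes, and it was 0.19 (adjusted p = 0.675, limma) without PBS replicate 1 and 0.0070 without PBS replicate 2.

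Catalase (Cat), the peroxisomal enzyme that destroys hydrogen peroxide, read 247, 223, 232 and 165 after baculovirus, against 251, 221, 206 and 161 after PBS. The lowest array of each group was replicate 4. The log2 fold change of 0.043 had a 95% interval from -0.25 to 0.34 (adjusted p = 0.968, limma), and it was -0.068 without PBS replicate 4. Mt3, also called growth inhibitory factor, is a metallothionein of brain that binds zinc and copper. It read 1664, 1988, 1925 and 2105 after baculovirus, against 1867, 1804, 2062 and 1985 after PBS. Baculovirus arrays gave both the lowest and the highest value, and the means were 1920 ± 187 and 1930 ± 116 (SD, n = 4 each, baculovirus and PBS). The log2 fold change of -0.010 had a 95% interval from -0.17 to 0.15 (adjusted p = 0.99, limma).

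The intervals bound the size of change that the arrays left room for. For all 12 probe sets the unadjusted 95% interval lay inside a 1.5-fold change in either direction, and for 9 of them inside a 1.25-fold change. The exceptions at 1.25-fold were Hmox1, with bounds at 0.773-fold and 1.44-fold, the dimmer Txnrd1 probe set, with an upper bound at 1.28-fold, and Cat, with one at 1.26-fold. With a pseudocount of 1, which shrinks dim signals less, the Hmox1 interval reached past 1.5-fold and 7 probe sets stayed inside 1.25-fold. A p above the threshold does not show that a gene did not differ, and changes smaller than these bounds were not resolved with 4 arrays a group.

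**Figure D2:**
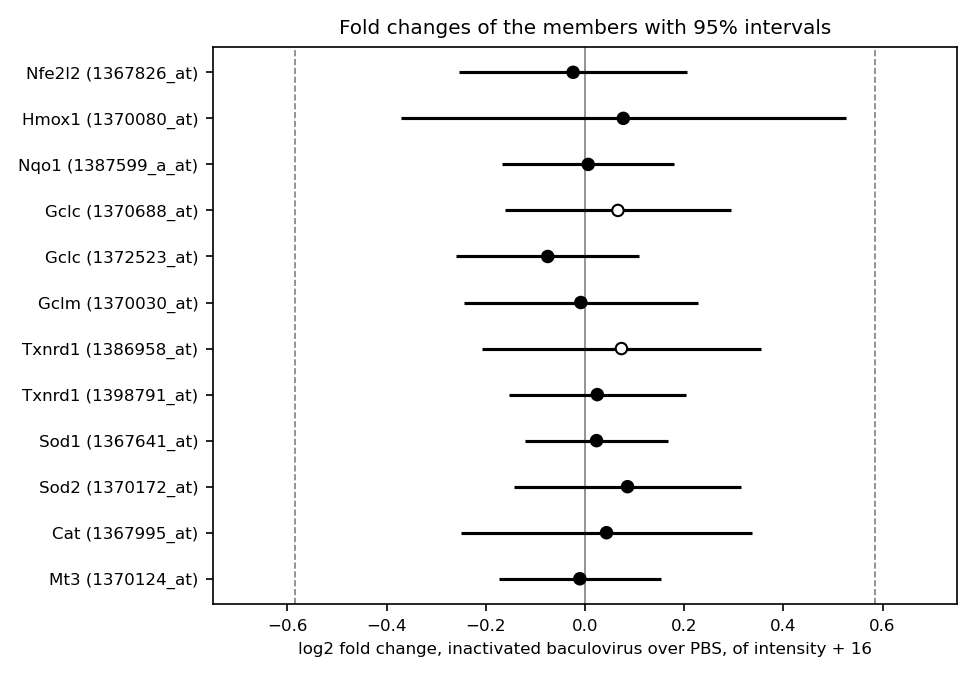
Log2 fold change of inactivated baculovirus over PBS (horizontal axis, of intensity + 16) with 95% limma intervals for each member probe set, filled points marking the brightest probe set of a gene and dashed lines a 1.5-fold change. Every interval spans 0, and the widest, of Hmox1, runs from -0.37 to 0.53.

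Among themselves several members varied together across the arrays of both groups. Of the 45 pairs of the 10 genes, 5 had a Pearson correlation over the 8 arrays that passed a Benjamini-Hochberg value of 0.05 in exact two-sided permutation tests, and 1 did so by Spearman's rho. The share of such pairs among all genes tested was not counted, so these counts do not set the members apart from other genes. Nfe2l2 ran against Sod1 at r = -0.961 (exact permutation p = 0.000992, Benjamini-Hochberg 0.0234) and rho = -0.833 (exact permutation p = 0.0154, Benjamini-Hochberg 0.138). It also ran against Nqo1 at r = -0.921 (exact permutation p = 0.00121, Benjamini-Hochberg 0.0234) and rho = -0.976 (exact permutation p = 0.000397, Benjamini-Hochberg 0.0179). With the arrays farthest from the Nfe2l2 median left out, baculovirus replicates 1 and 4, r was -0.902 with Sod1 and -0.943 with Nqo1.

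Nqo1 and Sod1 ran together at r = 0.926 (exact permutation p = 0.00156, Benjamini-Hochberg 0.0234) and rho = 0.857 (exact permutation p = 0.0107, Benjamini-Hochberg 0.12), and r = 0.773 once baculovirus replicate 4 and PBS replicate 2 were left out. Gclc and Mt3 ran in opposite directions at r = -0.877 (exact permutation p = 0.00449, Benjamini-Hochberg 0.0487) and rho = -0.881 (exact permutation p = 0.00724, Benjamini-Hochberg 0.109), and r = -0.708 once baculovirus replicates 1 and 4 were left out. Sod1 and Mt3 ran together at r = 0.867 (exact permutation p = 0.00541, Benjamini-Hochberg 0.0487) and rho = 0.905 (exact permutation p = 0.00456, Benjamini-Hochberg 0.103), and r = 0.926 once baculovirus replicate 4 and PBS replicate 2 were left out. All 5 signs were the same within the baculovirus arrays and within the PBS arrays. Nfe2l2 with Sod1, for example, had r = -0.959 among 4 baculovirus arrays and -0.988 among 4 PBS arrays. No label gives a scan or labelling batch, so none could be held constant.

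These correlations depended on how arrays were scaled. With quantile normalization 1 pair passed, Nfe2l2 with Nqo1 at r = -0.94, while Nfe2l2 with Sod1 stood at -0.529. With median centring 1 pair passed, Nqo1 with Sod1 at r = 0.958, and Nfe2l2 with Nqo1 stood at -0.697. The 5 pairs kept their signs in these and all other settings run. With single arrays left out, 0 to 4 of the 45 pairs passed. None did without baculovirus replicate 1 or 4 or without PBS replicate 1 or 3. Of the 5 pairs, 1 passed without PBS replicate 2, 3 without baculovirus replicate 3 and 4 without PBS replicate 4. Without baculovirus replicate 2, 4 pairs passed, of which 3 were among the 5.

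The upper end of each array's intensities moved with 4 of the 5 genes in these pairs. The 99th percentile of intensity was 1116, 1226, 1218 and 1258 on the baculovirus arrays, against 1193, 1165, 1246 and 1246 on the PBS arrays. Over the 8 arrays its log2 value correlated with Mt3 at r = 0.982 (exact permutation p = 9.92e-05, Benjamini-Hochberg 0.000992 over the 10 genes) and rho = 0.929 (exact permutation p = 0.00223, Benjamini-Hochberg 0.0223), and r = 0.933 once baculovirus replicate 1 and PBS replicate 2 were left out. Mt3 is itself brighter than that percentile on every array. With Sod1, which is brighter too, r was 0.823 (exact permutation p = 0.0111, Benjamini-Hochberg 0.035), with Gclc -0.823 (exact permutation p = 0.0104, Benjamini-Hochberg 0.035) and with Nfe2l2 -0.814 (exact permutation p = 0.014, Benjamini-Hochberg 0.035). Nqo1 did not pass, at r = 0.659 (exact permutation p = 0.0763, Benjamini-Hochberg 0.127) and rho = 0.762 (exact permutation p = 0.0368, Benjamini-Hochberg 0.0613). The rho values of Sod1, Gclc and Nfe2l2 were 0.786, -0.786 and -0.786 (exact permutation p = 0.0279 and Benjamini-Hochberg 0.0559 each), and without the same 2 arrays their r was 0.628, -0.565 and -0.626. The part of the array's intensity range in the correlations between genes was not tested. The beta-actin control probe sets give a measure of RNA quality, the log2 level at the 3' end minus that at the 5' end. Over the 8 arrays it correlated with none of the 12 probe sets past a Benjamini-Hochberg value of 0.05. The strongest relation was with the dimmer Txnrd1 probe set, at r = -0.772 (exact permutation p = 0.0275, Benjamini-Hochberg 0.33) and rho = -0.738 (exact permutation p = 0.0458, Benjamini-Hochberg 0.55), falling to r = -0.633 when baculovirus replicate 4 and PBS replicate 2 were left out. Within the groups of 4 arrays, r had opposite signs for all probe sets but Gclm and the dimmer Txnrd1 one. Sod1, for example, had r = 0.977 among baculovirus and -0.716 among PBS arrays, and Cat had -0.981 and 0.806. The relation within groups was not tested.

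**Figure D3:**
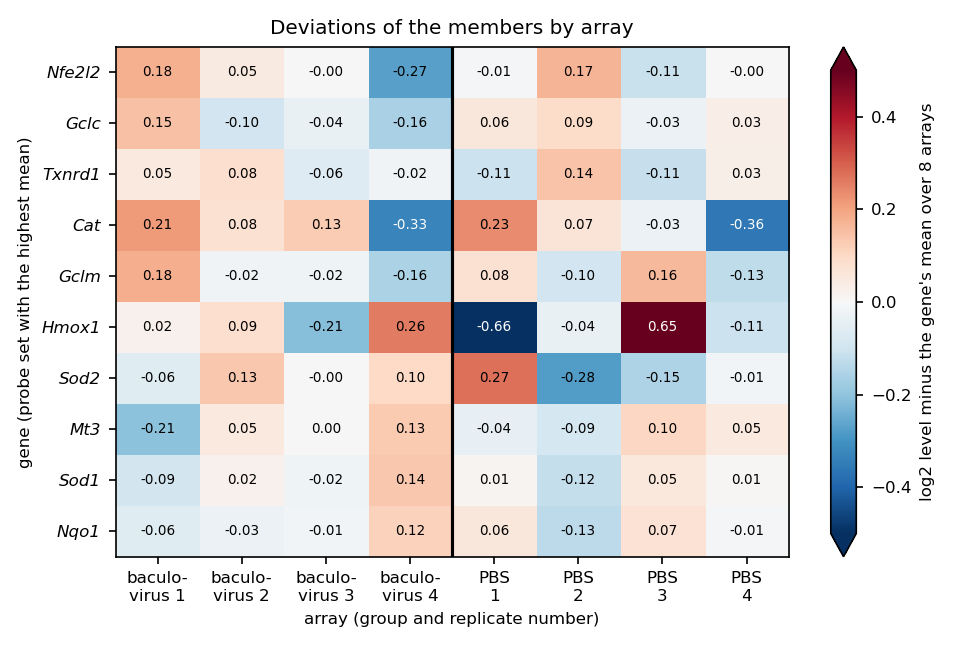
Log2 level of each gene minus its own mean over the 8 arrays (colour and printed value), for the brightest probe set of each of the 10 genes (rows) on the baculovirus and PBS arrays (columns). Nfe2l2 is low where Sod1, Nqo1 and Mt3 are high, as on baculovirus replicate 4, and the reverse holds on PBS replicate 2, on both sides of the dividing line between groups.

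Over the same 8 arrays the genes whose log2 level was most like that of a member, among 10538 others, are given as a description only. Mt3 was closest to Ldhb (r = 0.994), a lactate dehydrogenase subunit, and Dynlrb1 (r = 0.977). Nqo1 was closest to Lage3 and Sem1 (r = 0.993 each). Sod1 was closest to Nt5c3a (r = 0.976) and to Glrx2 (r = 0.975), the mitochondrial glutaredoxin. Nfe2l2 was closest to Cyb561a3 (r = 0.972) and Timm29 (r = 0.969), Gclc to Shroom2 (r = 0.957) and Rhot1 (r = 0.956), and Gclm to Sting1 (r = 0.969) and Hps6 (r = 0.963). For Hmox1 these were Gipc2 (r = 0.962) and Nuf2 (r = 0.951), for Txnrd1 Ddx18 (r = 0.97) and Dnaja3 (r = 0.968), for Sod2 Polr2c (r = 0.961) and Car7 (r = 0.959), and for Cat Gnl2 (r = 0.963) and Slc4a2 (r = 0.945).

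The rest of the antioxidant system gave the same count. Of 86 further genes listed in 8 groups by function, 80 were named on the array and 69 were above the level filter. None passed an adjusted p of 0.05 in limma (background 0% of genes), 1 was under an unadjusted p of 0.05, against 6.58% of all genes tested, and 2 had groups that did not overlap, against 4.17%. Of the 69, 39 had a higher and 30 a lower mean after baculovirus, with a median log2 fold change of 0.0091.

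Around the NRF2 switch, 1 of 6 genes tested was higher by its mean after baculovirus and 5 were lower. Keap1, the sensor that holds NRF2, stood at -0.060 ± 0.11 (log2 fold change ± SE), Cul3, the ubiquitin ligase scaffold with which it works, at -0.12 ± 0.08, and Mafg, a partner of NRF2 on DNA, at 0.076 ± 0.084. The other probe set of Keap1 and that of Mafg had the opposite sign. Glutathione genes had 9 higher and 7 lower means. Slc7a11, which imports cystine for glutathione and is an NRF2 target, read 252, 219, 247 and 207 after baculovirus, against 283, 247, 278 and 246 after PBS. All 4 baculovirus arrays lay below the PBS mean but the groups overlapped (log2 fold change -0.18 ± 0.09, limma adjusted p = 0.742). Glutathione synthetase, Gss, stood at 0.16 ± 0.10 and the glutathione transferase Gstm2 at 0.26 ± 0.18.

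Among thioredoxin and peroxiredoxin genes 8 were higher and 5 lower. The mitochondrial pair Txn2 and Txnrd2 stood at 0.14 ± 0.08 and 0.22 ± 0.12, and Txnip, the inhibitor of thioredoxin, at 0.18 ± 0.11. Of 6 further genes for superoxide and peroxide, 4 were higher and 2 lower. The extracellular dismutase Sod3 read 145, 138, 159 and 146 after baculovirus, against 146, 125, 75.1 and 136 after PBS, so that PBS replicate 3 alone stood apart. Its log2 fold change was 0.29 ± 0.15 (limma adjusted p = 0.753), the copper chaperone Ccs stood at 0.072 ± 0.096, and Oxr1, an oxidation resistance gene, at -0.13 ± 0.07.

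Genes that supply NADPH, the electron source of both systems, had 4 higher and 3 lower means. Nnt, the mitochondrial transhydrogenase, read 313, 302, 312 and 264 after baculovirus, against 316, 334, 341 and 345 after PBS. Every baculovirus array was below every PBS array, the closest pair at 313 and 316, and the test did not pass (log2 fold change -0.16 ± 0.08, limma adjusted p = 0.737). Tkt, of the pentose phosphate route, stood at 0.13 ± 0.07 and Idh2 at -0.058 ± 0.073.

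Metal, iron and haem genes had 4 higher and 4 lower means. The zinc sensor Mtf1, which drives inducible metallothionein genes, read 264, 322, 243 and 296 after baculovirus, against 318, 288, 413 and 326 after PBS. The groups overlapped (log2 fold change -0.24 ± 0.11, limma adjusted p = 0.737). The inducible metallothionein Mt2A read 947, 900, 953 and 1131 after baculovirus, against 859, 785, 1072 and 861 after PBS (log2 fold change 0.14 ± 0.10, limma adjusted p = 0.788). All 4 baculovirus arrays were above the PBS mean, and PBS replicate 3 was above 3 of them. The transferrin receptor Tfrc stood at -0.15 ± 0.08. Quinone and carbonyl detoxification genes had 4 higher and 2 lower means, with Aldh2 at 0.15 ± 0.08, Abcc1 at -0.11 ± 0.10 and Aldh9a1 at -0.010 ± 0.095.

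Genes whose products make reactive oxygen had 5 higher and 2 lower means, with a median log2 fold change of 0.15. Maob, the monoamine oxidase of astrocytes, which releases hydrogen peroxide, was the 1 gene under an unadjusted p of 0.05. It read 550, 497, 541 and 455 after baculovirus, against 573, 578, 600 and 585 after PBS. Every baculovirus array lay below every PBS array, and the log2 fold change of -0.19 ± 0.07 did not pass (limma adjusted p = 0.71). Ncf4, a subunit of the phagocyte oxidase, stood at 0.22 ± 0.14 and Xdh, xanthine dehydrogenase, at 0.21 ± 0.14. Cybb, the catalytic subunit of that oxidase and named here after its value was seen because it was the largest of the 69, stood at 0.43 ± 0.33, with 129, 49.1, 89.1 and 22.0 after baculovirus against 37.1, 27.1, 38.7 and 74.0 after PBS. Its highest and lowest arrays were both baculovirus arrays. Beside it, all 9 of 9 markers of microglia and macrophages had a higher mean after baculovirus, against 55.7% of all genes tested. None passed an adjusted p of 0.05. Higher means were also found for 5 of 6 endothelial and mural, 3 of 3 choroid plexus and 1 of 1 red cell markers tested. That of Ttr rested on PBS replicate 4: it read 1846, 1968, 1563 and 1599 after baculovirus, against 1888, 1869, 1787 and 47.7 after PBS. Of the red cell genes below the level filter, Alas2 had means of 13.3 after baculovirus and 7.4 after PBS, and Slc4a1 had 17.1 and 29.0. Of the other lists, 3 of 5 oligodendrocyte, 3 of 7 astrocyte and 2 of 7 striatal neuron markers were higher. The mean level of the microglial markers ran from -0.22 to 0.34 over the baculovirus arrays and from -0.40 to 0.16 over the PBS arrays on the log2 scale. None of these 9 was near 0 in intensity. The part of the microglial markers in the oxidase values was not tested.

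**Figure D4:**
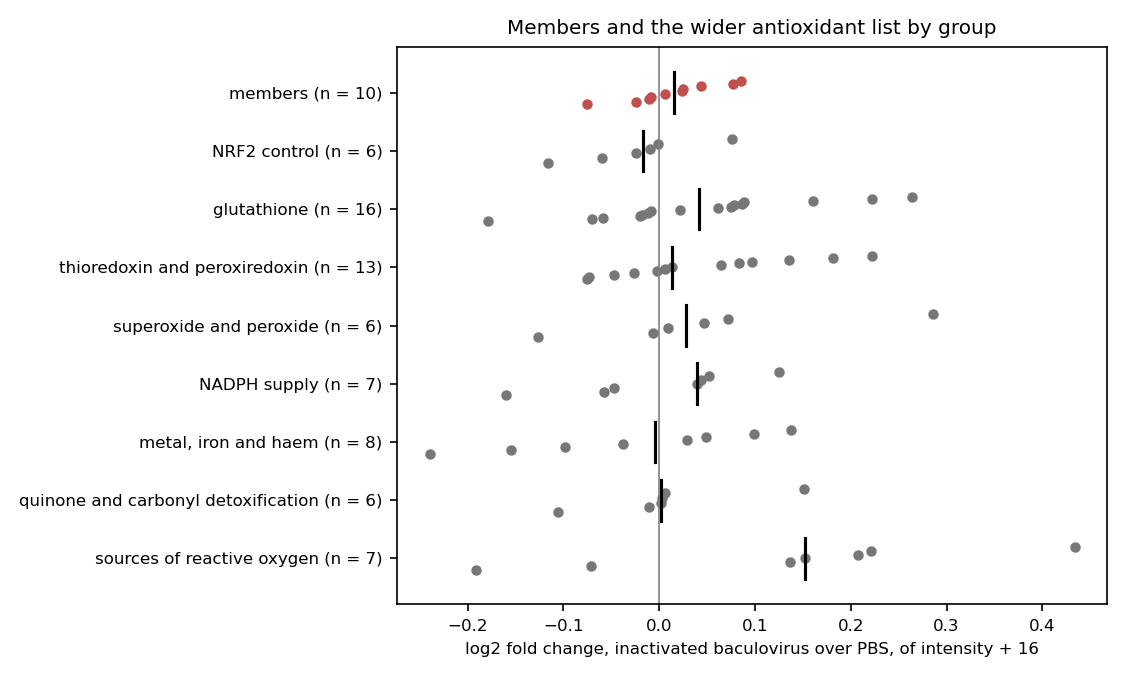
Log2 fold change of inactivated baculovirus over PBS (horizontal axis, of intensity + 16) for the 10 members (red) and for the 69 tested genes of the wider list (grey) in 8 groups, with black bars at the medians. The members lie between -0.075 and 0.086, and the widest group is that of genes that make reactive oxygen, with a median of 0.15.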

How the data were processed

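The authors deposited 1 intensity per probe set and array on a linear scale, from Affymetrix arrays scanned with GCOS per the submitters' processing notes. These notes also name GCRMA, and the summary algorithm behind the intensities is not stated there. Either of a pair of labelling kits was used, per the study's design text, and no label says which array had which. The trimmed mean of every array, with 2% left out at each end, was about 100. Array medians spanned 0.111 on the log2(intensity + 16) scale, under the limit of 0.2 set for leaving arrays as deposited.

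Of 31099 probe sets 57 controls were left out, and 20826 of the others carry 1 symbol. A gene was represented by its singly named probe set with the highest mean. The comparison used limma (version 3.58.1, R version 4.3.3) with lmFit and eBayes, a trended prior variance and no block, and two-sided p-values adjusted over all probe sets tested at a threshold of 0.05. Arrays of the same replicate number were not treated as pairs, since no label ties an array to a rat. The check of same-number arrays given below cannot show whether any of them shared an animal. Correlations were tested by exact permutation of all array orders. On simulated data the fit recovered 0.5% of 200 changed probe sets at 1.25-fold, 64.5% at 1.5-fold and 98% at 2-fold. Wrong calls numbered 0, 6 and 12 in these runs. The members, the lists and the rule for named genes (all members, the 3 smallest p of each group of the wider list, the 2 genes most like each member) were chosen with earlier results of these data known.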

Additional observations from a re-analysis of the deposited data

Results flagged for a closer look

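In 2 of the 24 groups of 4 arrays examined, 12 probe sets in either group, 1 array lay far from the others relative to the group's range. Both belonged to the dimmer Txnrd1 probe set, 1386958_at. After baculovirus, replicate 4 at 38.0 lay below the others at 52.3 to 54.4, a gap of 0.87 of the range. After PBS, replicate 4 at 61.2 lay above the others at 40.9 to 42.9, a gap of 0.902 of the range. Chance gives such a gap in about 1 in 20 groups. The brighter Txnrd1 probe set, 1398791_at, had no such array in either group.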

How the results depend on the processing

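In the 21 alternatives that keep probe sets apart, 0 probe sets passed an adjusted p of 0.05, and in all 22, which add an average over the probe sets of each gene, 0 members and 0 genes of the wider list did. The methods' t-test found 0 probe sets 2-fold apart at an unadjusted p under 0.05 as well. With 1 array left out the counts ran from 0 to 0, and the lowest adjusted p of a member in any setting was 0.621, for the dimmer Txnrd1 probe set without PBS replicate 4. The median log2 fold change of the members, 0.015, ran from -0.0024 to 0.036 with 1 array left out and was -0.014 with median centring. With the replicate number as a block 0 probe sets passed (lowest adjusted p = 0.674). Arrays of the same number correlated in their deviations from the group means at -0.005 to 0.016, and 0 of 4 baculovirus arrays correlated best with the PBS array of their number.

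Single fold changes this close to 0 turned sign in 27 of 259 values, and the cause was not tested. With median centring Nqo1 stood at -0.0221, Sod1 at -0.0054 and Txnrd1 (1398791_at) at -0.0039. With quantile normalization Mt3 stood at 0.003. With array weights Mt3 stood at 0.0082 and Gclm at 0.0183. With PBS replicates 3 and 4 left out together, chosen after seeing the data, Hmox1 stood at 0.3858 (0.0773 over all arrays), under an unadjusted p of 0.05 with an adjusted p of 0.63. In the same setting Gclm stood at 0.0051, Txnrd1 at -0.0052, Cat at -0.1286 and Mt3 at 0.0592. With 1 array left out, Nfe2l2 ran from -0.0866 to 0.0621, Hmox1 from -0.1289 to 0.3062, Nqo1 from -0.0363 to 0.0317, Gclm from -0.0699 to 0.0444, Txnrd1 from -0.0093 to 0.0765, Sod1 from -0.0182 to 0.0572, Cat from -0.0683 to 0.1604 and Mt3 from -0.0559 to 0.0564. Sod2, both Gclc probe sets and the dimmer Txnrd1 probe set kept their sign in every alternative run, but not their size. With 1 array left out Sod2 ran from 0.0070 to 0.1913, the brighter Gclc probe set from -0.1366 without baculovirus replicate 1 to -0.0334 without baculovirus replicate 4, and the dimmer Gclc probe set from 0.0070 without baculovirus replicate 1 to 0.1069 without baculovirus replicate 4. The dimmer Txnrd1 probe set ran from 0.0324 without PBS replicate 1 to 0.1791 without PBS replicate 4. Sod2 without PBS replicate 1 was under an unadjusted p of 0.05. The alternatives for the correlations between members were chosen after seeing the data.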
